A study of Mus musculus with 2 samples.

Results

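The insulin-like growth factor genes of the embryonic mouse cochlea are described across cell types and between 2 genotypes. The set holds 10 of the 32285 genes in the deposited count tables: the ligands Igf1 and Igf2, the receptors Igf1r and Igf2r, the binding proteins Igfbp2, Igfbp3, Igfbp4, Igfbp5 and Igfbp7, and the noncoding RNA H19. They were picked by gene symbol as a family, with earlier results of these data known, and each symbol was found in both libraries. Single cells of cochleae at E16.5, a late embryonic age, were profiled by droplet sequencing of transcript 3′ ends, in a series that asks how Ptch1 and Sonic hedgehog bear on the marginal cells of the stria vascularis. The mutant group, Emx2Cre;Ptch1f/f, carries floxed alleles of Ptch1, the Hedgehog receptor that keeps the pathway off without ligand, and Cre recombinase driven from Emx2. The wild-type group is labelled Wildtype, and the labels do not say whether those embryos carried a floxed allele or Cre. Both groups have a mixed 129/SvEv and C57BL/6N background, and each group is 1 library of 8 pooled cochleae. The differences between genotypes thus have no replicate behind them, and no test was run. All intervals are 95% intervals that cover counting error only, and genotype cannot be told apart from library.

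IGF1 and IGF2 are small secreted peptides that act through the receptor tyrosine kinase IGF1R, which drives growth and survival through the PI3K and MAPK pathways. IGF2R has no kinase: it takes IGF2 up for breakdown in lysosomes. The IGF binding proteins hold the ligands in the tissue fluid and can limit or prolong their action, and proteases release the ligand again. Igf2, H19 and Igf2r are imprinted in the mouse, and loss of Igf1 is known to slow cochlear maturation and to cause deafness.

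Levels are given as CPM, a gene's UMIs (counted transcript molecules) divided by all UMIs of a cell class in a library and scaled to 1000000. In the epithelium, 4 of the 10 genes stood at 2-fold or more lower in the mutant and 0 at 2-fold or more higher. The 4 were Igf1, Igfbp2, Igfbp4 and Igfbp7. Of all 16266 genes measured in the epithelium, 6.17% stood 2-fold lower and 2.02% 2-fold higher. The members' median log2 ratio was -0.29, beside 0.03 over all those genes. Many wild-type epithelial barcodes also held RNA of other lineages (62.3%, against 22.8% in the mutant), and without such mixed barcodes Igf1 was the 1 member left 2-fold lower, beside 3.2% of genes. Then 0 members stood 2-fold higher, beside 2.91% of genes. In the mesenchyme 0 of the 10 genes reached 2-fold either way, where 0.457% of genes stood 2-fold higher and 0.53% 2-fold lower. In glia Igfbp4 stood 2-fold higher in the mutant, beside 2.06% of genes, and Igf2 and H19 stood 2-fold lower, beside 1.5% of genes. Without mixed barcodes Igfbp7 joined those lower in glia, beside 1.71% of genes.

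**Figure D1:**
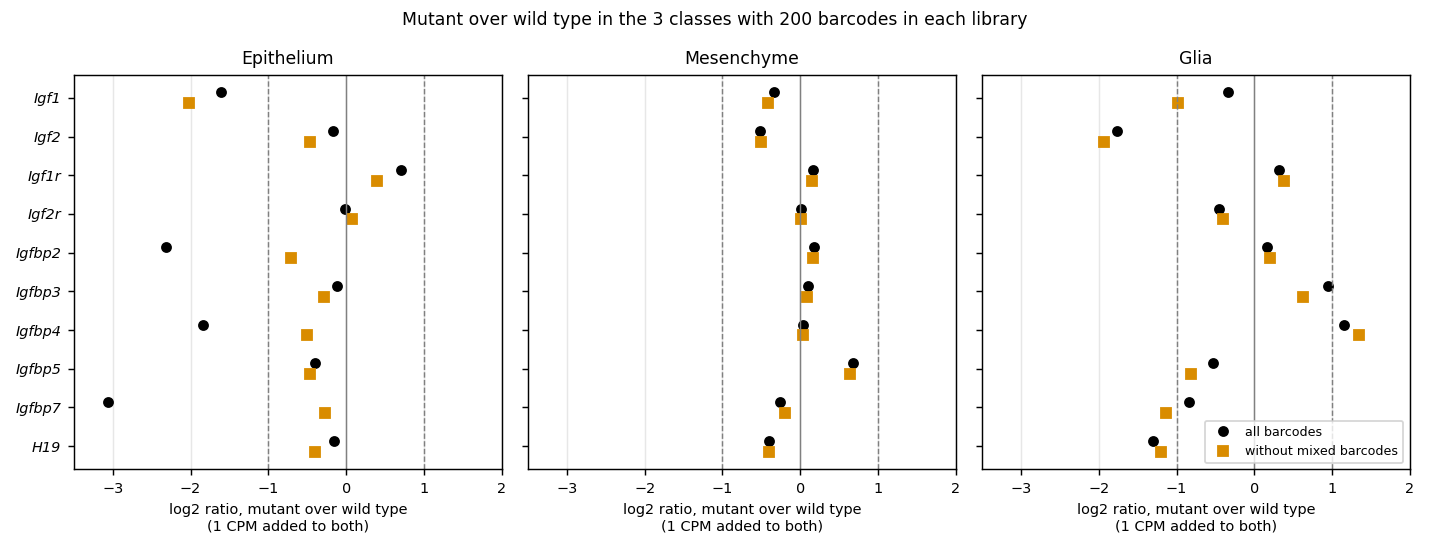
Log2 ratio of each gene, mutant over wild type with 1 CPM added to both, in epithelium, mesenchyme and glia. Black circles use all barcodes and orange squares leave out mixed barcodes, and dashed lines mark 2-fold. In epithelium Igf1 stays beyond the dashed line in both forms, at -1.60 and -2.03, while Igfbp2, Igfbp4 and Igfbp7 move inside it.

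The 250 bases before the transcription start are printed for the members that were 2-fold lower in the epithelium, because these stood lower together when all barcodes were used. They come from RefSeq on build GRCm38.p6, in which 9 of the 10 members have an entry, and run 5′ to 3′ on the gene's strand. Capitals mark a GC box (GGGCGG), an E-box (CACGTG) or a TATA box (TATAAA), searched on both strands, so a GC box on the other strand reads CCGCCC. The Igf1 window lies wholly within annotated exons and is not printed.
Igfbp2, chr1:72824230-72824479, plus strand: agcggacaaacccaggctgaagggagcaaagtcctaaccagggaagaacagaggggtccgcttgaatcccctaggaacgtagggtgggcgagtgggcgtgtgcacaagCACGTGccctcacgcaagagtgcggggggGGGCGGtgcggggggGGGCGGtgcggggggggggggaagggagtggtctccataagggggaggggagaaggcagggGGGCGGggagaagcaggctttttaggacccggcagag
Igfbp4, chr11:99040994-99041243, plus strand: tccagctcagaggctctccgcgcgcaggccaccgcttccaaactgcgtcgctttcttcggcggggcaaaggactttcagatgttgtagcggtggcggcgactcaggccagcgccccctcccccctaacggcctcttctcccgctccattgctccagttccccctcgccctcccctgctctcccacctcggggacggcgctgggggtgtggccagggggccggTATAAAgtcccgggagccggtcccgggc
Igfbp7, chr5:77408046-77408295, minus strand: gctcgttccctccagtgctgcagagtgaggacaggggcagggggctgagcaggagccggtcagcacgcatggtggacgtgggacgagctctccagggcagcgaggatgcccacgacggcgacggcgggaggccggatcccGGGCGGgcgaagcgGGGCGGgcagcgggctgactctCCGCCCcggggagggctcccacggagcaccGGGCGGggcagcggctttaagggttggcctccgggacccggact
The Igfbp2 window held 3 GC boxes, the nearest 37 bases before the start, and 1 E-box. That of Igfbp7 held 4 GC boxes, the nearest 44 bases before the start. A TATA box stood 28 bases before the Igfbp4 start. Among 32851 windows of the same length, 32.7% held a GC box, 6.02% the E-box and 12.4% the TATA box. GACCACCCA, the sequence bound by GLI factors of the Hedgehog pathway, was in 0.225% of those windows and in 0 of the 4 windows of these genes. A match is a description of letters and not a site of binding.

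The deposited matrices held 12326 barcodes and 100135532 UMIs in the mutant, and 6500 barcodes and 61130806 UMIs in the wild type, and 25 barcode sequences occurred in both. Filters on depth, mitochondrial share and doublets kept 8671 mutant and 6109 wild-type barcodes in 30 clusters, of which 27 fell into 9 named classes. CPM is not divided by transcript length, so levels are set side by side for 1 gene at a time. Where UMIs of several genes are summed or divided, the value is one of tags and is read only between libraries or classes. The epithelium had 2067 mutant barcodes with a median of 3721 UMIs and 1619 wild-type barcodes with a median of 7555. The mesenchyme had 4541 and 2777 barcodes, and glia 449 and 437, in the mutant and the wild type. Epcam, which marks epithelium, stood at 1040 and 869 CPM in the epithelium of the mutant and the wild type. Its level was 11.9 and 7.47 CPM in their mesenchyme. Ptch1 stood at 184 CPM in mutant epithelium and 30.4 CPM in wild-type epithelium, but tags from transcript 3′ ends do not check the deletion. Emx2, whose promoter drives Cre, had 31.9 and 17.9 CPM in mutant and wild-type epithelium, 0.245 and 0.170 CPM in their mesenchyme and 0.239 and 0.331 CPM in their glia. Haemoglobin RNA was unevenly spread, with Hbb-bs at 147 CPM in mutant epithelium and 3435 CPM in wild-type epithelium.

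**Figure D2:**
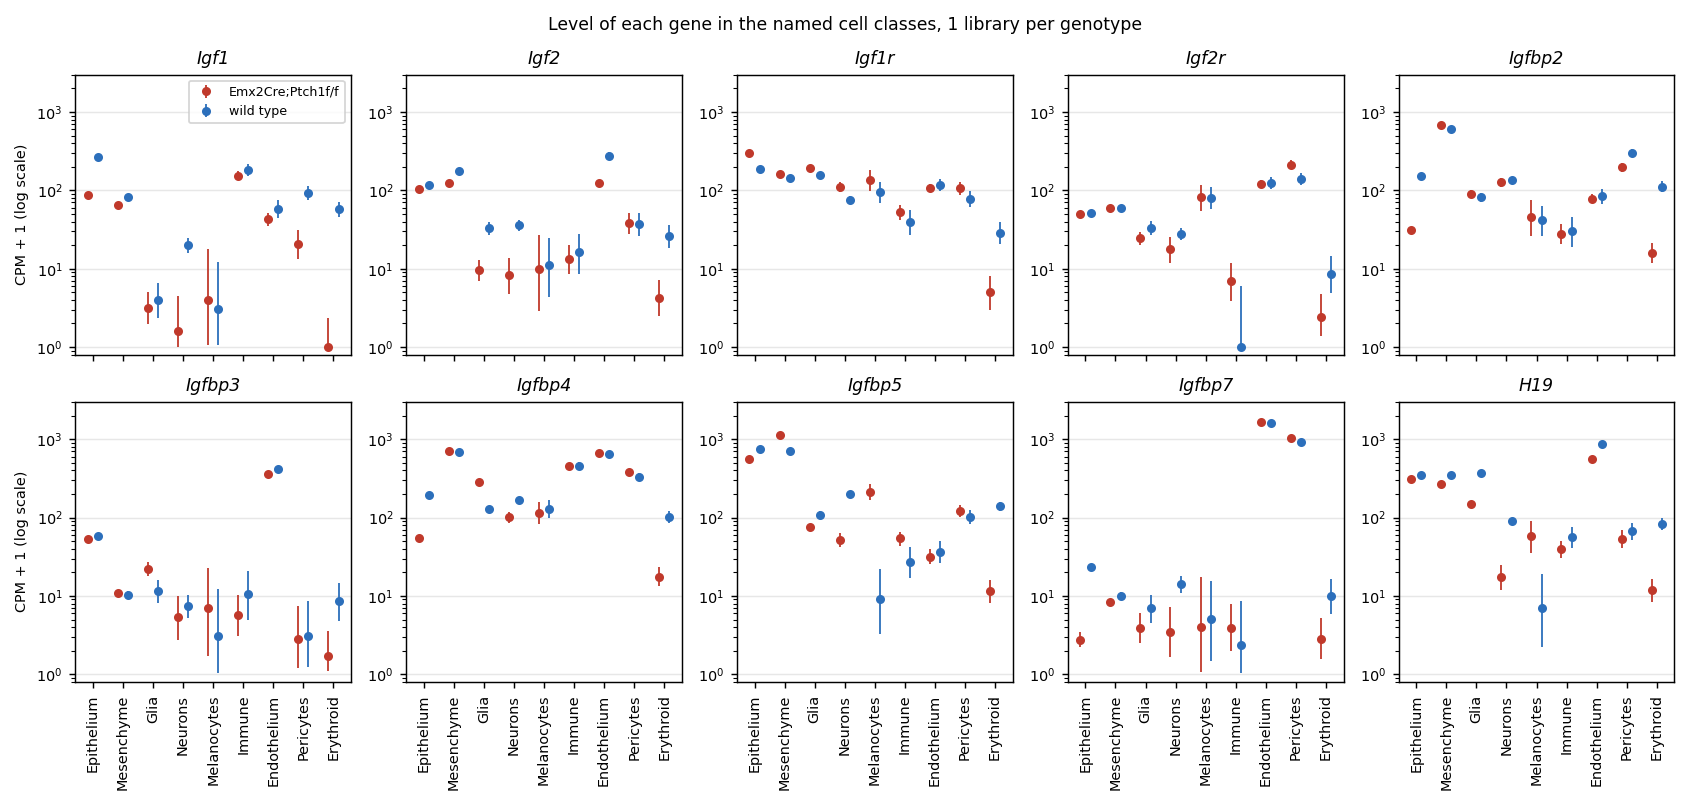
Level of each of the 10 genes in the 9 named classes, as CPM plus 1 on a log scale, with exact Poisson 95% intervals. Each point is 1 library, red for Emx2Cre;Ptch1f/f and blue for wild type. Igfbp7 and Igfbp3 are highest in endothelium in both libraries, Igfbp2 in mesenchyme, and Igf1 in epithelium stands at 86.9 CPM in the mutant and 266 CPM in the wild type.

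Igf1, the ligand with the highest affinity for IGF1R, was highest in the immune cells of the mutant and in the epithelium of the wild type. It stood at 86.9 CPM (82.9 to 91.0, 1766 UMIs) in mutant epithelium, against 266 CPM (258 to 274, 4444 UMIs) in wild-type epithelium. The log2 ratio was -1.60 with a counting interval of -1.70 to -1.54. Immune cells held 153 CPM in the mutant and 179 CPM in the wild type, and their counting intervals overlapped. Endothelium held 41.6 and 56.7 CPM and pericytes 19.9 and 92.0 CPM in the mutant and the wild type, the pericyte values resting on 22 and 87 UMIs. Melanocytes had 1 UMI in each library. Glia were nearly free of Igf1, with 9 UMIs in each library (2.15 CPM in the mutant and 2.98 CPM in the wild type).

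At an equal depth of 2000 UMIs per barcode, 134 of 1383 mutant epithelial barcodes (9.69%, interval 8.18 to 11.4) held an Igf1 UMI, against 486 of 1619 wild-type ones (30.0%, 27.8 to 32.3). Without thinning these shares were 18.2% in the mutant and 56.6% in the wild type. Depth left out 684 mutant barcodes and 0 wild-type ones. In glia, which serve as the low class for this gene, the share was 0.224% in the mutant and 0.458% in the wild type, at median depths of 8033 and 5949 UMIs.

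The epithelial difference in Igf1 was not the same in every cluster. The cluster led by Epyc, Smoc2 and Otoa, which is Kölliker's organ-like, held 60.02% of mutant and 54.1% of wild-type epithelial Igf1 UMIs from 10.5% and 24.8% of the barcodes. Its level was 296 CPM in the mutant and 511 CPM in the wild type (log2 -0.78). A finer clustering (Leiden resolution of 2) gave a cluster led by Smoc2 and Otoa with 216 mutant and 206 wild-type barcodes. Another, led by Calb1, Epyc and Crabp1, had 14 and 247. The part of this uneven mix in the Igf1 difference was not tested. In the roof-like cluster led by Oc90 and Otx2, Igf1 stood at 102 CPM in the mutant and 319 CPM in the wild type (log2 -1.63). The prosensory-like cluster led by Tectb and Lgr5 went the other way, with 37.7 CPM in the mutant and 27.1 CPM in the wild type (log2 0.46). So did the cluster led by Tecta and Serpinb5, at 22.6 CPM (140 UMIs) in the mutant and 7.22 CPM (6 UMIs) in the wild type (log2 1.52).

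The highest Igf1 level of any cluster was in marginal cell-like cells, the epithelial cells of the stria vascularis that secrete potassium. That cluster, led by Ptgds, Cldn4, F3, Enpep and Esrrb, had 0 mutant and 60 wild-type barcodes and stood at 923 CPM (850 to 1000). At 2000 UMIs, 51 of its 60 barcodes (85.0%) held an Igf1 UMI. It gave 13.4% of wild-type epithelial Igf1 UMIs from 3.71% of the barcodes, and 86.7% of its barcodes counted as mixed. Hair cell-like and outer sulcus-like clusters, with 277 and 424 wild-type barcodes and 2 and 37 mutant ones, held 142 and 159 CPM of Igf1 in the wild type. On the mutant side, 2 shallow clusters took 33.7% and 13.1% of the epithelial barcodes and held 22.4 and 10.3 CPM of Igf1.

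The class value for Igf1 in epithelium kept its side of 2-fold under 12 of 12 other settings, with log2 ratios of -2.24 to -1.48. These include -2.03 without mixed barcodes, -1.94 over the clusters with 50 barcodes in both libraries and -1.48 without the 2 shallow clusters. The lowest, -2.24, came from the finer clustering. There the cluster led by Smoc2 and Otoa, with 216 mutant and 206 wild-type barcodes, stayed unnamed and was left out of the epithelium. Erythroid barcodes, taken as a class with little Igf1 of its own, held 0 Igf1 UMIs in the mutant, which allows up to 11.7 CPM once haemoglobin is taken out of the total. In the wild type they held 81 UMIs (193 CPM on that scale), and 35.2% of those barcodes were mixed. The part of such RNA in low Igf1 values, and in the epithelial ratio without mixed barcodes, was not tested.

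**Figure D3:**
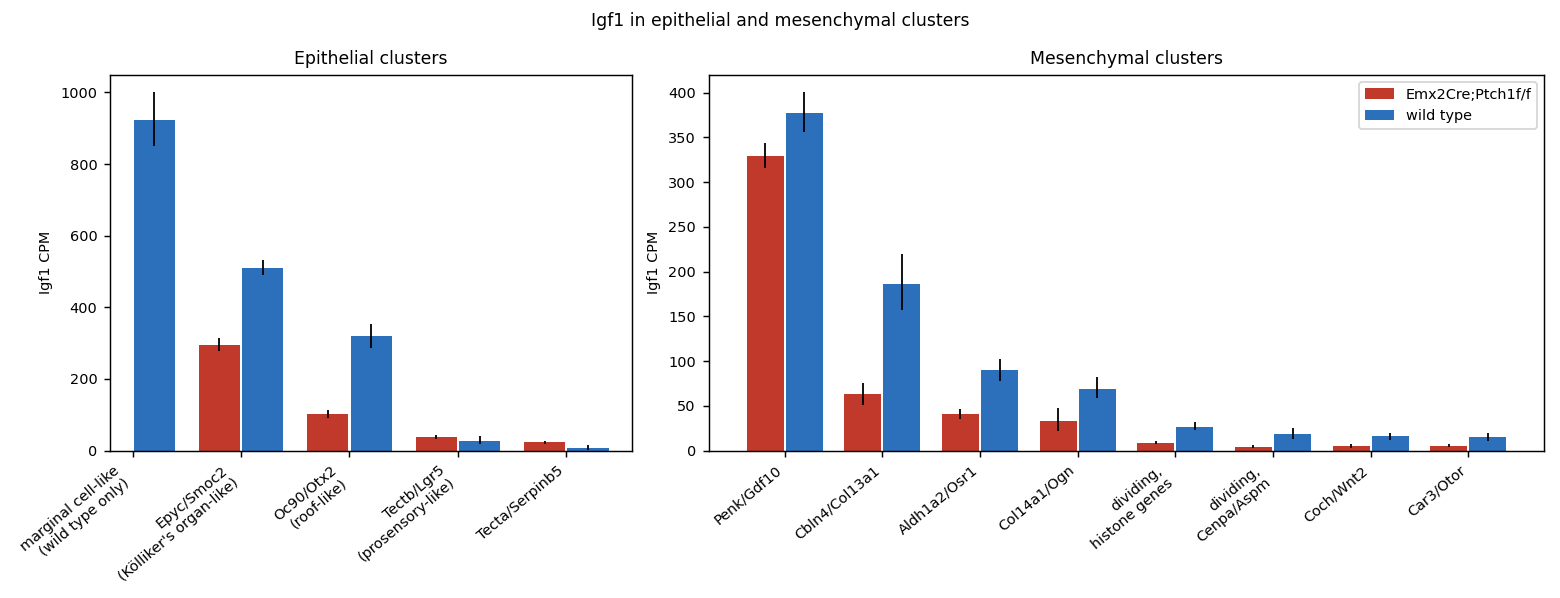
Igf1 CPM in epithelial clusters (left) and mesenchymal clusters (right), with exact Poisson 95% intervals, red for Emx2Cre;Ptch1f/f and blue for wild type. The marginal cell-like cluster has 60 wild-type barcodes and 0 mutant ones. The Kölliker's organ-like and roof-like clusters are lower in the mutant, and so are all 8 mesenchymal clusters shown.

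In the mesenchyme Igf1 stood at 64.9 CPM in the mutant and 82.3 CPM in the wild type (log2 -0.34). It was lower in the mutant in 8 of 8 clusters with 50 barcodes in both libraries, and 2-fold lower in 7. The exception was the Penk and Gdf10 cluster, at 330 CPM in the mutant and 378 CPM in the wild type (log2 -0.20), where 1.14% of genes stood 2-fold lower. That cluster alone held 80.3% of mutant and 58.7% of wild-type mesenchymal Igf1 UMIs from 18.4% and 15.7% of the barcodes. An unnamed cluster led by Ccn3, Tnc and Cdh6 scored as mesenchyme but is not among the 8. It had 1086 mutant and 384 wild-type barcodes, and 0 of the 10 genes stood 2-fold lower there, beside 1.26% of genes.

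The other mesenchymal clusters held less Igf1, and most of them little. In the Cbln4 and Col13a1 cluster, where 2.52% of genes stood 2-fold lower, Igf1 had 62.7 CPM in the mutant and 186 CPM in the wild type. In the Aldh1a2 and Osr1 cluster (1.15% of genes) it had 40.5 and 89.6 CPM, and in the Col14a1 and Ogn cluster (4.79%) 33.0 and 69.3 CPM. The remaining 4 held less in both libraries: 5.12 and 15.9 CPM in the Coch and Wnt2 cluster (1.66%), 5.45 and 14.8 CPM in the Car3 and Otor cluster (1.54%), 4.17 and 18.7 CPM in the dividing Cenpa and Aspm cluster (1.34%), and 8.93 and 26.7 CPM in the dividing histone cluster (1.41%), in the mutant and the wild type. The finer clustering split Coch cells unevenly between the libraries, as given below for Igf2, and the part of this was not tested.

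Igf2, the ligand bound by both receptors, differed little between the libraries in epithelium. It stood at 103 CPM in the mutant and 116 CPM in the wild type (log2 -0.17), and within 4 of 4 epithelial clusters it was slightly higher in the mutant (log2 0.01 to 0.21). In mesenchyme it stood at 122 CPM in the mutant and 176 CPM in the wild type (log2 -0.52) and was lower in 7 of 8 clusters. The Coch and Wnt2 cluster was the 1 cluster past 2-fold, at 48.8 and 127 CPM in the mutant and the wild type. In the finer clustering, a cluster led by Slc5a7 and Coch had 454 mutant and 113 wild-type barcodes. Another, led by Ucma and Wnt2, had 137 and 427. The part of this uneven mix in the Igf2 difference was not tested.

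Endothelial Igf2 stood at 122 CPM (323 UMIs) in the mutant, against 271 CPM (273 UMIs) in the wild type, a log2 ratio of -1.15 from 121 and 75 barcodes. Without mixed barcodes it was -1.17. Pericytes held 37.1 and 36.0 CPM in the mutant and the wild type, where the intervals overlapped. In glia Igf2 was low, at 8.61 CPM (36 UMIs) in the mutant and 31.7 CPM (96 UMIs) in the wild type (log2 -1.77). At 2000 UMIs 1.57% of mutant and 5.03% of wild-type glial barcodes held an Igf2 UMI, beside 1.42% and 1.41% of immune barcodes. The mutant glial share lay at the level of the immune cells, whose median depths were 9237 and 9863 UMIs. In barcodes gated on glial markers alone the Igf2 log2 ratio was -0.19.

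Igf1r, the signalling receptor, was found in every named class. It stood at 302 CPM (6135 UMIs) in mutant epithelium and 185 CPM (3095 UMIs) in wild-type epithelium (log2 0.70, interval 0.64 to 0.77). In mesenchyme the values were 162 CPM in the mutant and 145 CPM in the wild type (log2 0.16), and in glia 194 and 155 CPM (log2 0.32). The receptor was higher in the mutant in 4 of 4 epithelial, 8 of 8 mesenchymal and 2 of 2 glial clusters compared, and in none by 2-fold.

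The highest Igf1r level among the compared epithelial clusters was in prosensory-like cells, at 432 CPM in the mutant and 275 CPM in the wild type. The 2 shallow epithelial clusters of the mutant held 39.9 and 50.1 CPM, and a mean over barcodes of their own CPM, which weights them like deep ones, gave a log2 ratio of 0.18. Without mixed barcodes it was 0.39. Endothelium was the 1 class besides the erythroid cells where Igf1r was not higher in the mutant, at 107 and 116 CPM with overlapping intervals.

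Igf2r, which clears IGF2, did not differ between the libraries beyond counting error in epithelium, mesenchyme or endothelium. It stood at 49.1 CPM in mutant and 49.6 CPM in wild-type epithelium (log2 -0.02, interval -0.15 to 0.12). Mesenchyme held 58.3 and 57.8 CPM and endothelium 120 and 123 CPM in the mutant and the wild type. Pericytes had the highest level in both libraries, with 211 CPM (233 UMIs) in the mutant and 140 CPM (132 UMIs) in the wild type. In glia the receptor stood at 23.4 and 32.4 CPM (log2 -0.45), with 98 UMIs in each library. Immune cells held 10 UMIs of Igf2r (5.89 CPM) in the mutant and 0 in the wild type, which allows up to 4.13 CPM.

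Igfbp5, a binding protein attached to extracellular matrix, was the member with the widest gap in mesenchyme. It stood at 1125 CPM (45997 UMIs) in mutant and 703 CPM (16576 UMIs) in wild-type mesenchyme, a log2 ratio of 0.68 (interval 0.65 to 0.70). The Penk and Gdf10 cluster carried 72.8% of mutant and 64.9% of wild-type mesenchymal Igfbp5 UMIs, at 5186 and 3567 CPM. There 90.8% of mutant and 85.3% of wild-type barcodes held an Igfbp5 UMI at 2000 UMIs, beside 6 of 117 and 3 of 75 endothelial barcodes, where median depths were 14178 and 9443 UMIs. The Cbln4 and Col13a1 cluster held 2482 CPM in the mutant and 1550 CPM in the wild type. Igfbp5 was higher in the mutant in 6 of 8 mesenchymal clusters and lower in both clusters of dividing cells.

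In epithelium Igfbp5 stood at 563 CPM in the mutant and 744 CPM in the wild type (log2 -0.40). The prosensory-like cluster led by Tectb and Lgr5 held 1423 and 1343 CPM. It gave 62.3% of mutant and 9.96% of wild-type epithelial Igfbp5 UMIs from 18.5% and 4.45% of the barcodes. The supporting cell-like cluster, named from the same marker set, had 2 mutant and 207 wild-type barcodes. It gave a further 11.9% of wild-type epithelial Igfbp5 UMIs from 12.8% of the barcodes. In the roof-like cluster the level was 432 CPM in the mutant and 863 CPM in the wild type (log2 -0.999). Melanocytes held 212 CPM (71 UMIs) in the mutant and 8.14 CPM (4 UMIs) in the wild type. These rest on 23 and 47 barcodes, and Epcam stood at 129 and 2.04 CPM in the same melanocytes, so that epithelial RNA moved with that value and its part was not tested.

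Igfbp2, a binding protein with some preference for IGF2, was a mesenchymal gene in both libraries. Mesenchyme held 689 CPM in the mutant and 611 CPM in the wild type (log2 0.17), and pericytes followed with 197 and 295 CPM. In epithelium Igfbp2 stood at 30.0 CPM (610 UMIs) in the mutant and 153 CPM (2561 UMIs) in the wild type, a log2 ratio of -2.32. Without mixed barcodes the values were 25.2 and 41.7 CPM (log2 -0.70). Within clusters Igfbp2 was 2-fold lower in 2 of the 4 compared, both before and after mixed barcodes were left out. In the roof-like cluster it stood at 50.1 CPM in the mutant and 143 CPM in the wild type, and at 44.5 and 130 CPM without mixed barcodes, where 7.53% and 7.6% of genes stood 2-fold lower. The values without mixed barcodes rest on 65 mutant and 36 wild-type barcodes. In the prosensory-like cluster the mutant had 23.9 CPM and the wild type 57.5 CPM, or 20.6 and 42.8 CPM (36 wild-type UMIs) without mixed barcodes. There 3.48% and 3.21% of genes stood 2-fold lower. A finer cluster of such cells was uneven between the libraries, as given below for Igfbp3, and the part of this was not tested. Mesenchymal collagen RNA (Col1a1, Col1a2 and Col3a1) in epithelium stood at 3.97% of its mesenchymal level in the mutant and 17.8% in the wild type. Mesenchymal Igfbp2 scaled by that share came to 91.2% of the epithelial level in the mutant and 70.9% in the wild type.

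Igfbp4, which inhibits IGF action until it is cleaved by PAPP-A, was lower in mutant epithelium as a class but in 0 of 4 compared clusters by 2-fold. It stood at 53.0 CPM (1078 UMIs) in the mutant and 193 CPM (3222 UMIs) in the wild type (log2 -1.84), and at 45.5 and 65.0 CPM without mixed barcodes (log2 -0.51). Over the epithelial clusters with 50 barcodes in both libraries the log2 ratio was 0.08. Collagen-scaled mesenchymal RNA came to 53.4% of the epithelial Igfbp4 level in the mutant and 63.8% in the wild type. The hair cell-like, outer sulcus-like and supporting cell-like clusters, nearly all wild-type, gave 30.3%, 35.1% and 19.5% of wild-type epithelial Igfbp4 UMIs. Mixed barcodes made up 86.3%, 86.6% and 89.4% of their wild-type barcodes.

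**Figure D4:**
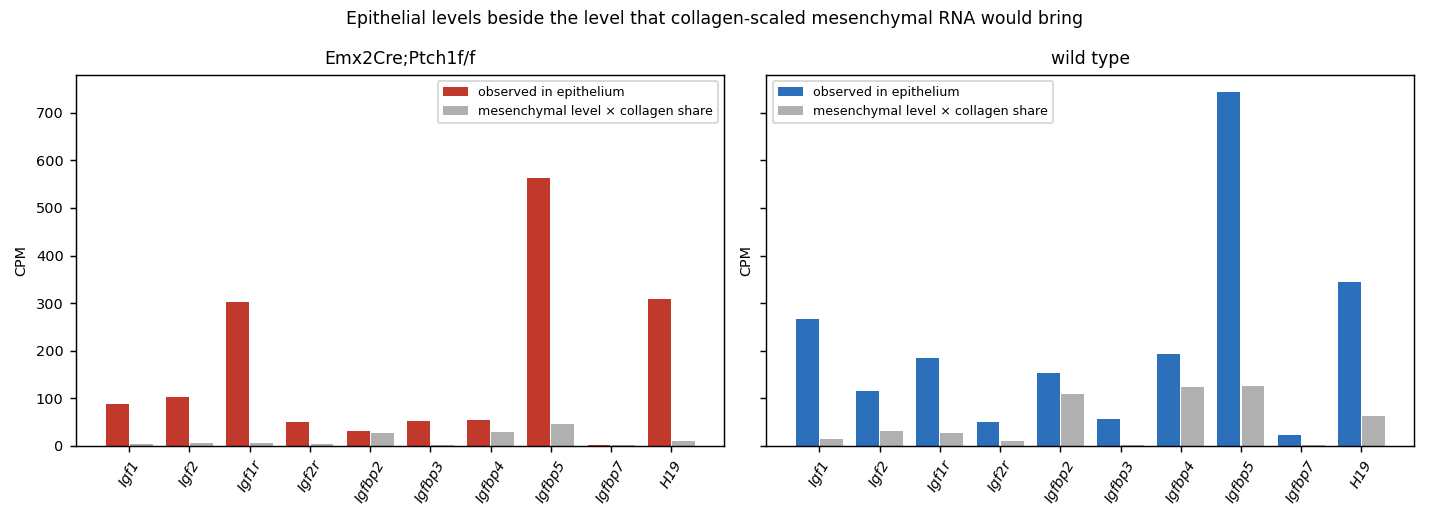
Observed CPM of each gene in the epithelium (coloured bars) and the level that its mesenchymal CPM times the collagen share would give (grey bars), for the mutant (left) and the wild type (right). The grey bar is 91.2% of the observed one for Igfbp2 in the mutant and 70.9% in the wild type, and 2.97% and 5.50% for Igf1.

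Other classes held Igfbp4 at close levels in both libraries. Mesenchyme held 712 CPM in the mutant and 692 CPM in the wild type. Endothelium held 674 and 642 CPM, immune cells 454 and 456 CPM and pericytes 381 and 329 CPM in the mutant and the wild type. In these 3 classes the interval of the ratio included 0 on the log2 scale.

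Glial Igfbp4 was higher in the mutant, at 284 CPM (1186 UMIs), against 127 CPM (385 UMIs) in the wild type, a log2 ratio of 1.15 (interval 0.99 to 1.32). Both glial clusters were past 2-fold, with log2 ratios of 1.02 and 1.20, where 3.92% and 2.91% of genes stood 2-fold higher. At 2000 UMIs 38.3% of mutant and 19.5% of wild-type glial barcodes held an Igfbp4 UMI, at median depths of 8033 and 5949 UMIs. The Kölliker's organ-like cells, where the gene was low, had shares of 2.78% and 6.73% at median depths of 10912 and 8588 UMIs. Without mixed barcodes the log2 ratio was 1.35. Barcodes gated on glial markers alone gave -0.43. In that gate 31.4% of mutant and 32.6% of wild-type barcodes fell in epithelial clusters, and 29.8% and 48.6% were mixed. The part of these in the gated value was not tested. With doublets kept the log2 ratio was 0.98, just under 2-fold. The collagen scaling is no usable background in glia, since it gave more Igf1 there (7.87 CPM in the mutant and 14.5 CPM in the wild type) than was observed.

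Igfbp7, a low-affinity IGF binding protein of blood vessels, was an endothelial and pericyte gene. Endothelium held 1630 CPM in the mutant and 1626 CPM in the wild type, and pericytes 1031 and 913 CPM. In epithelium Igfbp7 stood at 1.77 CPM (36 UMIs) in the mutant and 22.2 CPM (370 UMIs) in the wild type, the widest log2 ratio of the set at -3.06. Hair cell-like barcodes held 49.5% of those wild-type UMIs. Without mixed barcodes 26 mutant and 17 wild-type UMIs were left, at 1.503 and 2.02 CPM, and the interval of the ratio included 0 on the log2 scale (-1.37 to 0.54). In mesenchyme the values were 7.31 and 8.997 CPM, and in glia 2.87 and 5.95 CPM, in the mutant and the wild type.

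Igfbp3, the main carrier of IGFs in serum, was highest in endothelium, at 361 CPM (953 UMIs) in the mutant and 413 CPM (415 UMIs) in the wild type. In the whole epithelium it stood at 52.5 and 56.8 CPM, with overlapping counts (log2 -0.11, interval -0.24 to 0.01). Within clusters it was lower in the mutant in 4 of 4, and 2-fold lower in 2, the prosensory-like and roof-like clusters, where 3.48% and 7.53% of genes stood 2-fold lower. Prosensory-like cells held 97.8 CPM (490 UMIs) in the mutant and 314 CPM (289 UMIs) in the wild type, a log2 ratio of -1.67, and -1.80 without mixed barcodes. In the finer clustering, a cluster led by Glb1l2, Adamts19 and Tectb had 274 mutant and 22 wild-type barcodes. The part of this uneven mix in the Igfbp3 difference was not tested. At 2000 UMIs 13.6% of mutant and 37.5% of wild-type prosensory-like barcodes held an Igfbp3 UMI, beside 1.04% and 0 of 113 pericytes, which allows a share of up to 2.65%. Median depths were 7581 and 8466 UMIs in the prosensory-like cells and 10908 and 7406 UMIs in the pericytes. The roof-like cluster had 9 and 15 UMIs of Igfbp3 in the mutant and the wild type, at 2.73 and 13.7 CPM, and 9 and 3 UMIs without mixed barcodes. There Igfbp3 was no longer 2-fold lower in the mutant. Mixed barcodes made up 27.8% of mutant and 67.0% of wild-type barcodes of that cluster, and 65 and 36 barcodes were left without them.

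Most epithelial Igfbp3 came from 2 clusters in the mutant, prosensory-like cells with 45.9% of its UMIs and the Tecta and Serpinb5 cluster with 46.1%. In the wild type these gave 30.5% and 9.69%, and the supporting cell-like cluster, nearly all wild-type, gave 27.7%. The class values were thus alike while the cluster values were not, and the clusters made up different shares of the 2 libraries. In mesenchyme Igfbp3 had 10.0 and 9.34 CPM in the mutant and the wild type, most of it in the Aldh1a2 and Osr1 cluster of the mutant (57.8% of UMIs, against 41.8% in the wild type).

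H19, a noncoding RNA next to Igf2 that is expressed from the maternal allele, was highest in endothelium in both libraries. Endothelium held 553 CPM (1461 UMIs) in the mutant and 860 CPM (865 UMIs) in the wild type, a log2 ratio of -0.64. In epithelium H19 stood at 309 CPM in the mutant and 345 CPM in the wild type (log2 -0.16), and in mesenchyme at 265 and 349 CPM (log2 -0.40). Kölliker's organ-like cells held 915 CPM in the mutant and 603 CPM in the wild type and gave 52.1% and 49.3% of epithelial H19 UMIs. The finer clustering given for Igf1 split such cells unevenly between the libraries, and the part of this was not tested. In glia H19 stood at 148 CPM (617 UMIs) in the mutant and 365 CPM (1104 UMIs) in the wild type (log2 -1.30, interval -1.45 to -1.16).

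Both glial clusters were past 2-fold for H19, with log2 ratios of -1.46 and -1.24, where 2.91% and 1.7% of genes stood 2-fold lower. At 2000 UMIs 22.4% of mutant and 40.7% of wild-type glial barcodes held an H19 UMI, beside 7.80% and 8.45% of immune cells. Barcodes gated on glial markers alone gave a log2 ratio of -0.28. Haemoglobin-free counts of erythroid barcodes held 117 CPM of H19 in the mutant and 281 CPM in the wild type, a difference in the same direction whose part in the glial values was not tested. H19 UMIs numbered 3.01 per Igf2 UMI in mutant epithelium (interval 2.87 to 3.17) and 2.98 in wild-type epithelium (2.83 to 3.13). In mesenchyme the ratio was 2.17 in the mutant and 1.99 in the wild type.

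**Figure D5:**
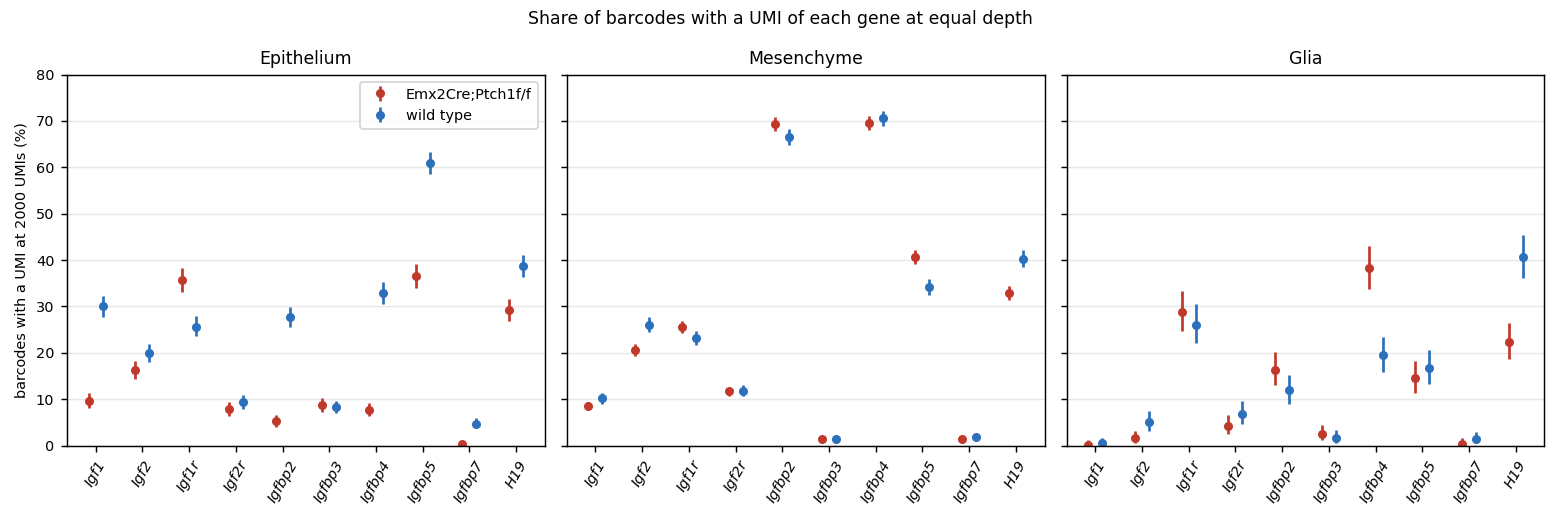
Share of barcodes with at least 1 UMI of each gene after thinning to 2000 UMIs, with exact Clopper-Pearson 95% intervals, in epithelium, mesenchyme and glia. Red is Emx2Cre;Ptch1f/f and blue is wild type. Igf1 in epithelium stands at 9.69% and 30.0%, and Igfbp4 in glia at 38.3% and 19.5%, in the mutant and the wild type.

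Neurons held mixed barcodes unevenly, and erythroid cells, with 49 mutant barcodes, were not compared. Neurons numbered 68 in the mutant, 2.94% of them mixed, and 358 in the wild type, 63.7% of them mixed. With all neurons 5 of the 10 genes stood 2-fold lower in the mutant, beside 11.8% of genes, namely Igf1, Igf2, Igfbp5, Igfbp7 and H19. Without mixed barcodes 2 of 9 measured stood 2-fold lower (Igf1 and Igfbp5), beside 5.91% of genes, and Igfbp4 stood 2-fold higher, beside 2.54%. Igf1 had 1 and 80 UMIs in these neurons, and 1 and 12 UMIs without mixed barcodes. Igfbp2 stood at 125 and 134 CPM in the neurons of the mutant and the wild type, and at 124 and 74.5 CPM without mixed barcodes. Igfbp4 lay lower in the mutant with mixed barcodes, at 99.6 and 164 CPM, and higher without them, at 98.9 and 45.7 CPM.

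The summed CPM of the 5 binding protein genes was 700 in mutant and 1169 in wild-type epithelium. In mesenchyme it was 2543 in the mutant and 2025 in the wild type, and in endothelium 2773 and 2800. Igfbp5 made up 80.4% of the binding protein UMIs in mutant epithelium and 63.6% in wild-type epithelium. Igfbp7 made up 58.8% and 58.1% of them in the endothelium of the mutant and the wild type, and Igfbp4 60.1% and 38.4% in glia.

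A list of 75 further genes of the pathway was compared in the same way. In epithelium 67 of them were measured, and 4 stood 2-fold higher and 7 2-fold lower in the mutant, beside 2.02% and 6.17% of all genes. Without mixed barcodes these were 3 and 5, beside 2.91% and 3.2%. Among the receptor substrates, adaptors and kinases, 0 of 29 measured genes passed 2-fold in epithelium, in mesenchyme or in glia. Of these, Grb10, an imprinted adaptor that dampens receptor signalling, stood at 305 CPM in mutant and 225 CPM in wild-type epithelium, and the kinase Gsk3b at 255.5 and 266.1 CPM. Insr, the insulin receptor, stood at 36.9 and 26.5 CPM in the epithelium of the mutant and the wild type.

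Of the 4 epithelial genes that were higher, 3 are targets or partners of the let-7 microRNAs. They come from a sub-list, with 6 genes measured, that was chosen for that axis and for RNA binding proteins of Igf2. The theme was thus set by the list. Hmga2, a chromatin protein of embryonic cells, stood at 676 CPM in the mutant and 141 CPM in the wild type. Lin28b, which blocks let-7 maturation, had 40.6 and 10.96 CPM, and Hmga1 17.02 and 5.81 CPM, in the epithelium of the mutant and the wild type. All 3 stayed 2-fold higher without mixed barcodes, while Igsf1, at 5.56 CPM in the mutant and 1.68 CPM in the wild type, did not. Igf2bp3, which binds Igf2 mRNA, stood at 96.0 CPM in the mutant and 79.4 CPM in the wild type (log2 0.27). Hmga1 was also 2-fold higher in mutant mesenchyme, at 17.4 and 6.75 CPM, and in mutant glia, at 25.8 and 8.27 CPM. It passed 2-fold in neurons and endothelium too, but not in immune cells or pericytes. Each compared epithelial cluster had Hmga1 2-fold higher, while Hmga2 was so in the prosensory-like and roof-like clusters and Lin28b in the prosensory-like cluster alone. Hmga2 is a leading gene of that cluster, which held 18.5% of mutant and 4.45% of wild-type epithelial barcodes.

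Of 20 imprinted genes, 5 stood 2-fold lower in mutant epithelium and 0 higher, beside 6.17% and 2.02% of all genes. Meg3 and Rian, noncoding RNAs of 1 imprinted cluster, had levels in the mutant and the wild type of 199.4 and 464 CPM for Meg3 and 32.8 and 78.3 CPM for Rian. Phlda2 had 1.87 and 5.15 CPM, and these 3 stayed 2-fold lower without mixed barcodes, beside 3.2% of all genes. Plagl1, at 4.28 and 12.04 CPM, and Dlk1, at 1.03 and 6.89 CPM, did not. Within clusters the directions differed. Meg3 and Rian were both 2-fold lower in the roof-like cluster, beside 7.53% of genes. Both were 2-fold higher in the Tecta and Serpinb5 cluster, beside 8.02%. In the Kölliker's organ-like cluster only Rian was 2-fold lower, beside 2.72%, and in the prosensory-like cluster neither passed 2-fold. Phlda2 passed 2-fold in none of these clusters. Gnas, with the most UMIs of the list, stood at 1173 CPM in the mutant and 1334 CPM in the wild type. In mesenchyme and in glia 0 of the imprinted genes measured reached 2-fold.

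Among the IGFBP proteases and their inhibitors, Htra1, a secreted serine protease, was 2-fold lower in the mutant in both epithelium and mesenchyme. Epithelium held 1.43 CPM of it in the mutant and 8.92 CPM in the wild type, and mesenchyme 14.9 and 33.0 CPM. Within mesenchyme Htra1 was 2-fold lower in the Coch and Wnt2, Cbln4 and Col13a1, Col14a1 and Ogn and both dividing clusters. It was not, with all barcodes, in the Car3 and Otor, Aldh1a2 and Osr1 or Penk and Gdf10 clusters. In the finer clustering, a cluster with Cytl1, Coch and Htra1 among its leading genes had 19 mutant and 175 wild-type barcodes. The part of this uneven mix was not tested. Adam12, a metalloprotease, stood at 18.4 CPM in mutant and 6.28 CPM in wild-type glia. Mmp2, a matrix protease, had 37.6 CPM in mutant and 74.7 CPM in wild-type epithelium. Igfbpl1, a relative of the binding proteins, stood at 0.197 CPM (4 UMIs) in mutant and 6.23 CPM (104 UMIs) in wild-type epithelium, and the ratio stayed past 2-fold without mixed barcodes at 4 and 22 UMIs.

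The patterns of the members over 18 profiles (9 classes in each library) were set beside those of all genes with at least 50 CPM in 1 profile, as a description in which profiles share libraries and classes. Igf2 and H19 had a Pearson r of 0.85 on the log2(CPM + 1) scale. Igfbp7 was most like Adgrf5 and Gja4 (r 0.97 for both), Igfbp3 like Podxl (0.92) and Fzd6 (0.91), and Igf1r like Mta1 and Mettl9 (0.97 for both). Igfbp5 was most like Col2a1 and Mir100hg (0.94 for both), and Igfbp2 like Col26a1 and Pou3f4 (0.89 for both). Igf2r was most like Amotl1 and Myo6 (0.95 for both), Igf2 like Adamts9 (0.91) and Arhgef5 (0.90), H19 like Flrt2 (0.92) and Cthrc1 (0.89), Igf1 like Fn1 (0.88) and Atf3 (0.85), and Igfbp4 like Tmem109 and Ifitm2 (0.88 for both).

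By GENCODE on GRCm38, Igf1 lies at chr10:87858265-87937042, Igf1r at chr7:67952827-68233668 and Igfbp4 at chr11:99041244-99054392, all on the plus strand. Igf2r at chr17:12682406-12769664, Igfbp3 at chr11:7206086-7213923 and Igfbp7 at chr5:77349240-77408041 lie on the minus strand. Igfbp2 (chr1:72824503-72852474, plus strand) and Igfbp5 (chr1:72857932-72874884, minus strand) are neighbours with 5457 bases between them. H19 (chr7:142575529-142578143) and Igf2 (chr7:142650766-142666816) lie on the minus strand, 72622 bases apart. Igf1os, Igf2os, Airn and Polr2b overlap Igf1, Igf2, Igf2r and Igfbp7 on the other strand, and Mir483 and Mir675 lie within Igf2 and H19. No source used here says whether the counting used strand, so reads of such pairs cannot be told apart.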

How the data were processed

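Cochlear cells of 1 Emx2Cre;Ptch1f/f and 1 wild-type library, each from 8 pooled cochleae, were dissociated with collagenase and dispase and run on a 10x Genomics kit for transcript 3′ ends, per the labels' protocols. The sample descriptions name different kit versions, while the protocol names 1. The authors deposited raw UMI counts per gene and barcode, without normalization. The submitters' processing notes name Cell Ranger 6.0.0 and mm10. Per the file headers, the mutant counts came from Cell Ranger 5.0.1 and the wild-type counts from 6.0.0. No source used here says how cells were called. The lowest UMI total per barcode was 500 in the mutant and 3352 in the wild type.

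A filter of 1000 or more UMIs, 500 or more genes and a mitochondrial share of up to 10% left 9373 mutant and 6440 wild-type barcodes. Scrublet called 0 doublets in each library and was taken not to have worked, so the top-scored 0.8% per 1000 barcodes were removed, 702 and 331. Joint clustering in scanpy 1.11.5 and igraph 0.11.9 (Python 3.11.15) took 2000 variable genes without the members, the pathway list and haemoglobin genes, then 30 principal components and 15 neighbours, at a Leiden resolution of 1 and with no batch correction. Clusters were named from 21 marker sets, needing 3 markers at 10 CPM, and "like" marks such rebuilt names. A check on leading genes was added to this rule after the data were seen, and 3 clusters stayed unnamed. Mixed barcodes held over 5 UMIs per 10000, and at least 2 UMIs, from 23 genes of 5 lineages other than their own. That rule was revised after values under a first form had been seen, because the first form counted genes that epithelium and glia express themselves.

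Within each class and library the counts were added up and given as CPM with exact Poisson 95% intervals. Ratios are log2((CPM mutant + 1)/(CPM wild type + 1)) for genes with at least 10 UMIs, with conditional binomial intervals on the counts, and shares carry exact Clopper-Pearson intervals (scipy 1.17.1). A count of 0 is given with the limit of 3 counts. Classes of several clusters were compared with 200 barcodes in each library, and single clusters, or classes of 1 cluster, with 50. These limits were set on all barcodes, before mixed ones were left out. Ratios and intervals were tested on epithelial counts simulated with known folds and counting error alone. Such counts hold no spread between libraries, cells or cluster mixes. The members, the 75 pathway genes and the lists were chosen with earlier results of these data known. Pathway genes are named where they passed 2-fold with at least 30 UMIs or were the highest of their sub-list. The alternatives were other scaling, pseudocount, fold, resolution and depth floor, doublets kept, mixed barcodes left out and marker gating. A higher mixed limit, the unnamed Mme cluster, the shallow clusters and shared clusters only were added after seeing the data.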

Additional observations from a re-analysis of the deposited data

Results flagged for a closer look

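Igfbp4 had opposite directions in glia and in epithelium. Its log2 ratio, mutant over wild type, was 1.15 in glia, where both glial clusters stood higher in the mutant. In epithelium it was -1.84 over all barcodes and -0.51 without mixed barcodes. The glial ratio was -0.43 in marker-gated barcodes, and the epithelial one 0.084 over clusters with 50 barcodes in both libraries. With 1 library per genotype the difference between the classes was not tested, and mixed barcodes made up 37.2% of mutant and 39.8% of wild-type glial barcodes, whose part in it was not tested.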

How the results depend on the processing

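No paired analysis was possible because each genotype is 1 library. Of 330 log2 ratios under other settings, 235 moved by no more than the counting interval and 92 by more. Ratios under 2-fold also changed sign: marker gating gave -1.18 for Igfbp2 and -0.21 for Igfbp3 in glia and -1.05 for Igfbp3 in mesenchyme, and Igf2r in epithelium kept its sign in 5 of 12 settings. Of the ratios past 2-fold, 3 changed sign: the Igfbp4 log2 ratio in epithelium to 0.084 over clusters with 50 barcodes in both libraries, the Igfbp7 log2 ratio in epithelium to 0.096 in marker-gated barcodes, and the Igfbp4 log2 ratio in glia to -0.43 in marker-gated barcodes. The count of members 2-fold lower in epithelium, 4, became 1 without mixed barcodes, 1 in marker-gated barcodes and 2 over clusters shared by both libraries. The count of members 2-fold lower in mesenchyme, 0, became 2 in marker-gated barcodes. The count of members 2-fold higher in glia, 1, became 0 with doublets kept and 0 in marker-gated barcodes. The count of members 2-fold lower in glia, 2, became 3 without mixed barcodes and 3 with doublets kept, and the glial Igf1 log2 ratio was then -1.60, against -0.34 with doublets removed. At a fold of 1.5 the counts of members higher were 1 in epithelium, 1 in mesenchyme and 2 in glia. The causes were not tested. The median-of-ratios scaling shifted all genes by 0.0415 in epithelium, 0.0408 in mesenchyme and -0.0025 in glia on the log2 scale, the classes it was run on. Igf1, Igf2 and Igfbp7 in glia and Igf1 in melanocytes and mutant neurons rest on few UMIs, so that differences there were not detectable at this depth or rest on wide counting intervals.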
